A study of Rattus norvegicus with 54 samples.

Results

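The vascular endothelial growth factor (VEGF) family was followed in the left ventricle of infarcted rats as 10 genes, the 5 ligand genes Vegfa, Vegfb, Vegfc, Vegfd and Pgf and the 5 receptor and co-receptor genes Flt1, Kdr, Flt4, Nrp1 and Nrp2. The genes were chosen by symbol, and all 10 were among the 40319 genes of the count tables. The data were bulk poly(A) RNA libraries from 18 female athymic rats (F344/NJcl-rnu/rnu, labelled as 8 weeks old), all collected 1 week after surgery. There were 6 animals with sham surgery and no treatment, 6 with untreated MI, and 6 with MI that received the SMC-EPC bi-level cell sheet, a graft of human smooth muscle cells and human endothelial progenitor cells placed over the infarct. MI was made by permanently tying off the left anterior descending coronary artery. Each heart gave an infarct zone piece (anterior wall), a border zone piece (lateral wall) and a remote zone piece (septum), which made 9 groups of 6 libraries and 54 libraries in all. In sham hearts these zone names mark only the matching position, since no infarct was made there. All rats, the sham group included, are of this athymic strain, which the study describes as making no mature T cells. Every value below belongs to that background. By the labels the libraries within a group are technical replicates, whereas the study describes separate hearts, and the p-values measure the spread between these libraries.

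VEGF ligands are secreted proteins that bind tyrosine kinase receptors on endothelial cells. Vegfa, the main driver of vessel growth and permeability, binds Flt1 (VEGF receptor 1) and Kdr (VEGF receptor 2), of which Kdr carries most of the growth signal and Flt1 also acts as a trap for the ligand. Vegfb and Pgf (placental growth factor) bind Flt1, whereas Vegfc and Vegfd bind Flt4 (VEGF receptor 3), the receptor of lymphatic endothelium. The neuropilins Nrp1 and Nrp2 are co-receptors that hold VEGFs and class 3 semaphorins. In the heart, cardiomyocytes are a known source of Vegfa and Vegfb, and the receptors sit mainly on endothelial cells.

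The promoters of 4 members are shown because these genes form pairs in the counts described below, Vegfd and Pgf with higher and Flt1 and Kdr with lower levels after MI. Each run holds the 250 bases before the start of the gene, 5′ to 3′ on the gene's strand, from RefSeq on the GRCr8 assembly. The core of the hypoxia response element was searched on both strands in its form ACGTG, which can overlap its own reverse complement on the other strand. The form GCGTG was searched in the same way. Capitals mark the matches, and every match in the members' windows is of this other form, on either strand.
Vegfd, chrX:33739893-33740142, minus strand: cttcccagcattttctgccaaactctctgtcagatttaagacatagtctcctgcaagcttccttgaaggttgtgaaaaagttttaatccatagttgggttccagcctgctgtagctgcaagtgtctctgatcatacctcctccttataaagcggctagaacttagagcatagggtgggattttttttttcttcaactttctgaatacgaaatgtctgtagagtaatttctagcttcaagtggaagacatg
Pgf, chr6:110557748-110557997, minus strand: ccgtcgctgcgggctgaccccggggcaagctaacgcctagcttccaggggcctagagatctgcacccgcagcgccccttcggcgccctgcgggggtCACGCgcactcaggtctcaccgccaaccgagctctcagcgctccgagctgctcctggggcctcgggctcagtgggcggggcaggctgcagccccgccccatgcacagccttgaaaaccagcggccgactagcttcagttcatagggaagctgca
Flt1, chr12:12333180-12333429, plus strand: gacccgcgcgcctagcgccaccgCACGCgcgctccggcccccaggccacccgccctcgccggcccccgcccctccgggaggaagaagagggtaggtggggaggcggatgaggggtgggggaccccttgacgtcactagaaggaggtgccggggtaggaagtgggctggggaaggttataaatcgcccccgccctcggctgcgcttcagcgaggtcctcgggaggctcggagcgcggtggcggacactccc
Kdr, chr14:32571813-32572062, plus strand: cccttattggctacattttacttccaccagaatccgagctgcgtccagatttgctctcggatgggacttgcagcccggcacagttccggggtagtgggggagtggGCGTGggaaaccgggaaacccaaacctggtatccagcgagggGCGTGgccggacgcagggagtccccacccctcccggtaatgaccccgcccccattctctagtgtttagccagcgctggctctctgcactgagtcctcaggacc
Pgf and Flt1 had 1 match each on the reverse strand, Kdr had 2 on the forward strand, and Vegfd had 0. All 10 members had a window in the RefSeq table (11 windows, as Vegfa has 2 start sites), and 6 members held at least 1 match, namely these 3 with Vegfb, Nrp1 and Nrp2. Of all 33469 promoter windows of this length, 36.7% held one. A match is a string of letters and not a measured binding site, and the counts were made on another assembly (mRatBN7.2).

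Each library had between 12699204 and 23397754 counts on genes, and levels are given as depth-scaled counts (CPM, each library's counts scaled to the same total) with library sizes scaled by TMM. A member's gene count covers all of its transcript forms, so soluble and membrane forms of Flt1 or the splice forms of Vegfa were not separated, and whether human transcripts of the graft were counted with the rat genes was not tested. Some libraries stood apart. Sham replicate 5 had a summed level of 10 macrophage markers of 7546 to 13048 CPM in its 3 zones against 385 to 924 CPM in the other 15 sham libraries, and its summed level of 15 cardiomyocyte markers was 36067 to 57154 CPM against 101533 to 124115 CPM. The sums of 17 blood endothelial markers in its zones were 1554 to 1665 CPM, below the 3075 to 4509 CPM of the other sham libraries. Its summed level of 8 T cell markers was 563 to 775 CPM against 47 to 84 CPM. The strain is described as making no mature T cells, and whether this animal matched that description was not tested. Cell sheet replicate 1 had a cardiomyocyte marker sum of 606 CPM in the border zone. In the remote zone its sum was 39942 CPM against 84115 to 117813 CPM in the other 5, and its fibroblast marker sum there was 40384 CPM against 3778 to 11897 CPM. Calls of members that were lost without 1 of these 2 animals are named beside the result. No marker of the cardiomyocyte or blood endothelial list was at 0 in all 6 libraries of any group.

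**Figure D1:**
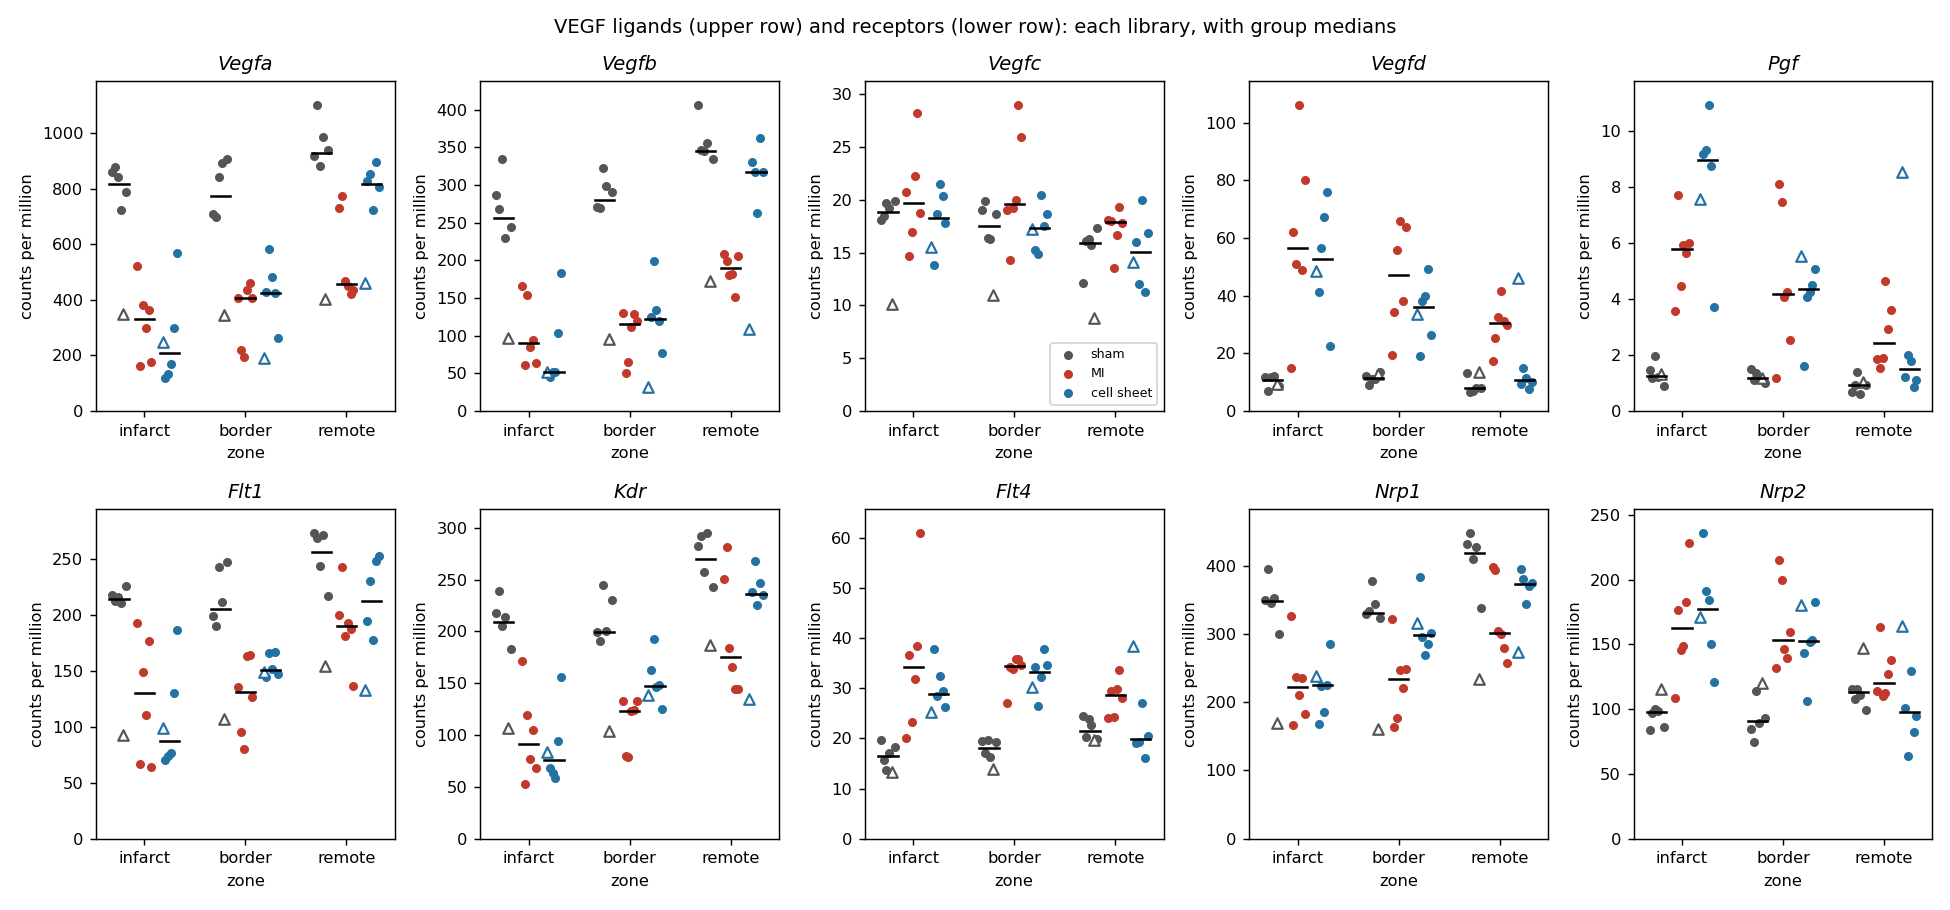
Level of each VEGF family gene in each library (CPM, linear axes starting at 0), by zone and treatment, with a black bar at the median of 6. Triangles are sham replicate 5 and cell sheet replicate 1. Vegfd in MI lies above every sham library in all 3 zones, whereas sham replicate 5 lies within or below the MI range for Vegfa, Vegfb, Flt1, Kdr and Nrp1.

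After MI the family divided into higher and lower members, as did all genes tested. Vegfd, Pgf and Flt4 rose in all 3 zones of untreated MI hearts, Nrp2 rose in the infarct and border zones, Vegfa and Vegfb fell in all 3 zones, Kdr fell in the infarct and border zones, and Flt1 fell in the border zone (edgeR quasi-likelihood test, Benjamini-Hochberg adjusted over all genes tested, threshold 0.05). Of the 10 members 7 passed in the infarct zone, 4 higher and 3 lower. Of all genes tested there 49.9% passed, 22.7% higher and 27.2% lower. The border zone had 8, 4 higher and 4 lower, against 41.7% of all genes (18.4% higher and 23.2% lower). The remote zone had 5, 3 higher and 2 lower, against 25.8% of all genes (11.7% higher and 14.2% lower). Vegfc passed in none of them. With library sizes left unscaled the splits were 5 higher and 3 lower, 5 and 3, and 3 and 1. The members' median log2 fold change was -0.14, -0.05 and -0.05 from infarct to remote zone, beside -0.02, -0.02 and -0.04 over all genes.

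**Figure D2:**
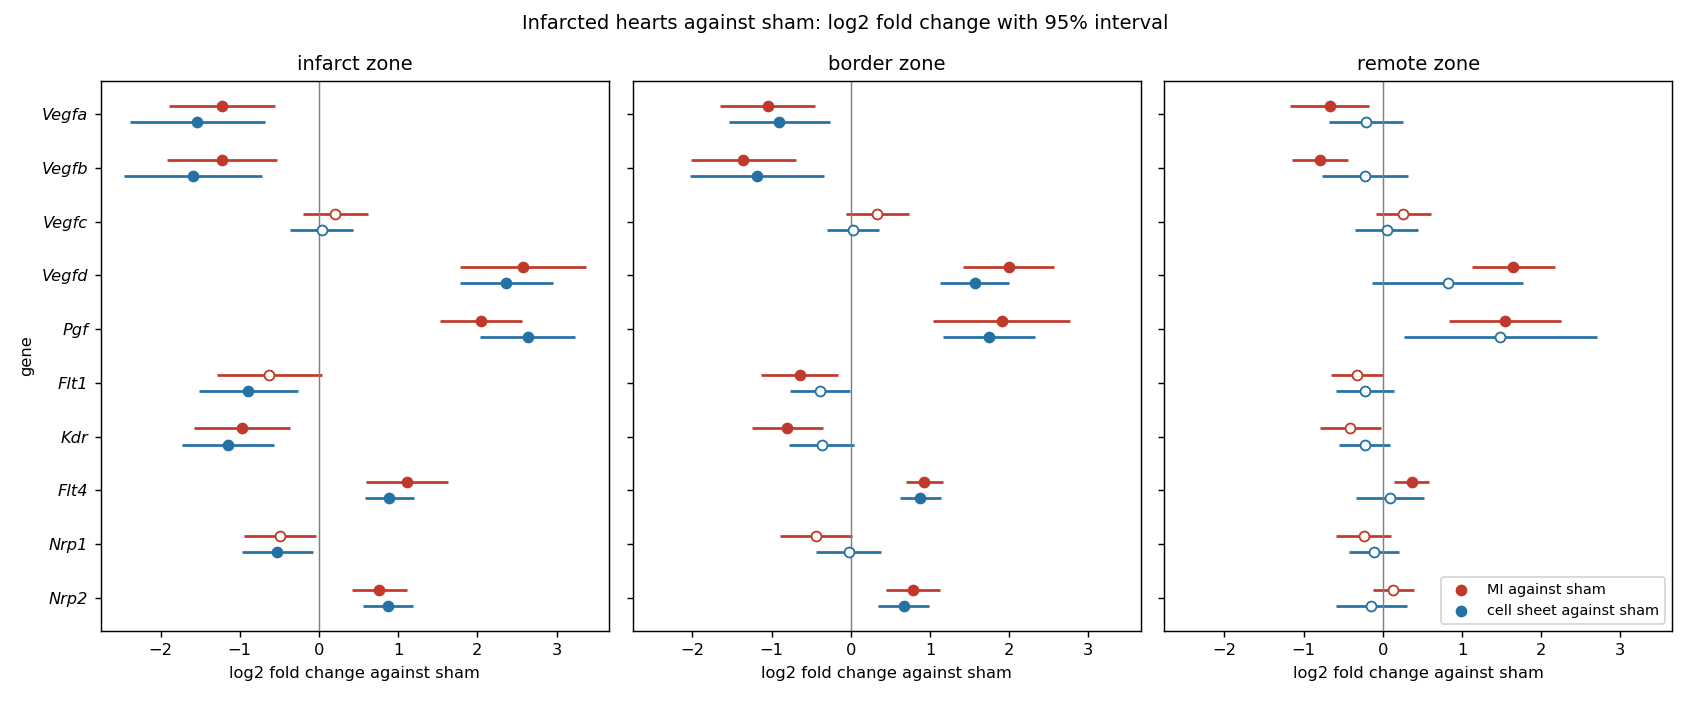
Log2 fold change against sham for each VEGF family gene in each zone, with its 95% interval, for untreated MI (red) and cell sheet-treated MI (blue). Filled points passed an adjusted p of 0.05. In the infarct and border zones the points of both treatments lie on the same side of 0 for every gene that passed in both, and in the remote zone no cell sheet point is filled.

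Among the ligands, Vegfd had the largest rise of the members after MI in every zone. Sham libraries of the infarct zone lay between 6.92 and 12.2 CPM with a median of 10.6 CPM, and MI libraries between 15.1 and 106 CPM with a median of 56.7 CPM. The groups did not overlap, and the lowest MI value was that of MI replicate 1, whose cardiomyocyte marker sum of 66047 CPM was the highest of the 6 MI infarct libraries. The log2 fold change was 2.57 ± 0.37 (SE, n = 6 and 6; adjusted p = 0.00036), which is 5.95-fold. Border zone libraries showed the same, where the sham range of 9.04 to 13.6 CPM stood beside an MI range of 19.4 to 66.1 CPM, a log2 fold change of 1.99 ± 0.26. The remote zone also showed no overlap, with 6.69 to 13.7 CPM in sham and 17.3 to 41.8 CPM in MI, and a log2 fold change of 1.65 ± 0.24. Vegfd encodes a ligand of Flt4 that is made as a longer precursor and cut by proteases.

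Pgf, the placental growth factor gene, was low in sham hearts, with 0.884 to 1.96 CPM in the infarct zone position. MI libraries there held 3.56 to 7.69 CPM with a median of 5.78 CPM, and no MI library reached down into the sham range. The log2 fold change was 2.05 ± 0.24 (adjusted p = 0.00011), which is 4.14-fold. MI values of the border zone spread from 1.18 to 8.08 CPM, with MI replicate 1 inside the sham range of 1.02 to 1.51 CPM, and the log2 fold change was 1.90 ± 0.40. The remote zone had 0.613 to 1.398 CPM in sham and 1.52 to 4.64 CPM in MI, without overlap, and a log2 fold change of 1.55 ± 0.33. Read counts of Pgf went down to 9 in a library, so that its single values are the least precise of the family.

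Vegfa moved the other way. Sham infarct zone libraries lay between 350.2 and 878 CPM with a median of 815 CPM, where 350.2 CPM is sham replicate 5 and the next value is 725 CPM. MI libraries ran from 162 to 521 CPM with a median of 331 CPM, so the groups overlapped only through that sham animal. The log2 fold change was -1.22 ± 0.31 (adjusted p = 0.0069), or 0.43 times the sham level. The border zone had medians of 774 CPM in sham and 407 CPM in MI and a log2 fold change of -1.05 ± 0.27. Remote zone medians were 928 and 459 CPM and the log2 fold change was -0.67 ± 0.23, with an adjusted p of 0.0497 that passed narrowly. It did not pass there with library sizes left unscaled (adjusted p = 0.10), with no filter on low counts (0.072), with at least 10 counts in every library (0.051) or in a single fit of all 9 groups (0.12). It passed in 3 of 12 fits that left out 1 animal each, those without sham replicate 5 or MI replicate 1 or 2. Without sham replicate 5 it was -0.81 with an adjusted p of 0.0012.

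Vegfb, a ligand of Flt1 linked to lipid handling of the heart, ran alongside Vegfa. Its infarct zone medians were 256 CPM in sham and 89.8 CPM in MI, and the log2 fold change was -1.22 ± 0.32 (adjusted p = 0.0083). The border zone gave -1.36 ± 0.31, from a sham median of 280.4 CPM to an MI median of 116 CPM. Remote zone MI libraries ran from 152 to 209 CPM and the 5 sham libraries other than replicate 5 from 335 to 406 CPM, with replicate 5 at 172 CPM. The log2 fold change there was -0.80 ± 0.16 (adjusted p = 0.0047), and it did not pass in the single fit of all 9 groups (adjusted p = 0.093). The ratio of Vegfb to Vegfa counts in the infarct zone was 0.323 ± 0.041 (SD, n = 6) in sham, 0.335 ± 0.056 in MI and 0.325 ± 0.065 in cell sheet hearts.

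Vegfc, the other ligand of Flt4, did not pass in any comparison of groups within a zone on the scale of all genes. Its MI range of 14.7 to 28.2 CPM in the infarct zone overlapped the sham range of 10.1 to 19.9 CPM, whose low end was sham replicate 5. The log2 fold change was 0.21 with a 95% interval from -0.20 to 0.61. The border zone value was 0.33 with an interval from -0.07 to 0.73, and in the remote zone 0.26 from -0.08 to 0.60. With library sizes left unscaled, which moved the median of all genes from -0.02 to 0.24 in the infarct zone and from -0.02 to 0.17 in the border zone, Vegfc passed at 0.49 (adjusted p = 0.036) and 0.52 (0.024). Because Vegfa fell, the ratio of Vegfc to Vegfa counts differed between the groups, with 0.0244 ± 0.0031 (SD, n = 6) in sham infarct zones and 0.0722 ± 0.0259 in MI. The matching ratio of Pgf to Vegfa was 0.00198 ± 0.00096 in sham and 0.0226 ± 0.0153 in MI. These ratios describe counts of 2 genes of different length and carry no test.

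Among the tyrosine kinase receptors, Kdr and Flt1 fell or had lower values, whereas Flt4 rose. Kdr had medians of 209.5 CPM in sham and 91.0 CPM in MI in the infarct zone, with ranges of 107 to 239 CPM and 52.6 to 172 CPM that overlapped. The log2 fold change was -0.97 ± 0.28 (adjusted p = 0.012) there and -0.80 ± 0.21 (adjusted p = 0.011) in the border zone. The remote zone value was -0.41 with an interval from -0.80 to -0.03 and did not pass (adjusted p = 0.11). With the replicate number as a block Kdr passed there, at -0.45 (adjusted p = 0.022). With edgeR on the libraries of the 2 groups compared, Flt1 passed only in the border zone, at -0.65 ± 0.22 (adjusted p = 0.034). Its medians there were 206 CPM in sham and 131 CPM in MI. That border zone call was lost with no filter on low counts (adjusted p = 0.055), with library sizes left unscaled (0.083) and with the replicate number as a block (0.10). It held in 4 of 12 fits with 1 animal left out, those without sham replicate 5 or MI replicate 1, 4 or 5. The infarct zone value was -0.62 with an interval from -1.28 to 0.03, and the remote zone value -0.32 from -0.65 to 0.01. In the single fit of all 9 groups Flt1 also passed in the infarct zone, at -0.63 (adjusted p = 0.027). The ratio of Flt1 to Kdr counts was 1.01 ± 0.13 in sham and 1.29 ± 0.25 in MI infarct zones (SD, n = 6).

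Flt4, the receptor for Vegfc and Vegfd, was higher in every MI library than in any sham library of the infarct and border zones. The infarct zone had 13.3 to 19.7 CPM in sham and 20.1 to 60.9 CPM in MI, a log2 fold change of 1.11 ± 0.24 (adjusted p = 0.0032). The border zone sham range of 13.9 to 19.6 CPM faced an MI range of 27.1 to 35.8 CPM, at 0.93 ± 0.11. The remote zone change was smaller, 0.37 ± 0.10 (adjusted p = 0.019), between overlapping ranges of 19.7 to 24.5 CPM and 24.2 to 33.6 CPM. That remote zone call was lost in the single fit of all 9 groups (adjusted p = 0.12) and with the replicate number as a block (0.053).

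The neuropilins parted in the same way as the other receptors. Nrp2, the co-receptor of lymphatic and venous endothelium, rose from a sham median of 97.8 CPM to an MI median of 162 CPM in the infarct zone, a log2 fold change of 0.76 ± 0.16 (adjusted p = 0.0029). In the border zone, with 74.6 to 120.5 CPM in sham and 132 to 215 CPM in MI, the groups did not overlap and the change was 0.79 ± 0.16. The remote zone value was 0.13 with an interval from -0.13 to 0.39. Nrp1, a co-receptor of Kdr on blood vessels, had log2 fold changes of -0.49, -0.44 and -0.24 from infarct through border to remote zone and did not pass with all libraries (adjusted p = 0.066, 0.11 and 0.29). It passed in the infarct zone with DESeq2, at -0.52 (adjusted p = 0.047), and in the single fit of all 9 groups (adjusted p = 0.023), which also passed Nrp1 in the border zone. The count ratio of Nrp2 to Nrp1 was 0.338 ± 0.171 in sham and 0.790 ± 0.326 in MI infarct zones (SD, n = 6).

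The separation of the lower members depended on sham replicate 5. With all 6 sham libraries, 3 members did not overlap between MI and sham in the infarct zone (14.1% of all genes tested), 3 did not in the border (11.5%) and 2 in the remote zone (8.24%), all of them higher in MI. Without sham replicate 5 the infarct zone had 4 members entirely higher and 4 entirely lower (45.6% of genes), the border zone 3 higher and 5 lower (43.0%), and the remote zone 2 higher and 2 lower (28.8%). The calls moved less in the infarct and border zones, to 9 of 10 members in each (64.8% and 60.8% of genes). Remote zone calls went from 5 to 8 (46.5%). The added members were Flt1 at -0.77 (adjusted p = 0.026) and Nrp1 at -0.62 (0.0055) in the infarct zone, and Nrp1 at -0.57 (0.0080) in the border zone. Added in the remote zone were Flt1 at -0.42 (0.011), Kdr at -0.49 (0.025) and Nrp1 at -0.35 (0.034).

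The tissue itself differed between the groups in the same libraries. The infarct zone median of the cardiomyocyte marker sum was 107935 CPM in sham and 20806 CPM in MI, and 14 of 15 markers passed as lower. The median fibroblast marker sum there was 5228 CPM in sham and 33701 CPM in MI, the myofibroblast sum 124 and 4086 CPM, and the macrophage sum 693 and 5785 CPM. Of the blood endothelial markers 0 of 17 passed in the infarct zone (median sums 4058 and 2350 CPM), and in the border zone 1 passed as higher and 1 as lower. Lymphatic endothelial markers had median sums of 178 and 340 CPM in the infarct zone, with 4 of 6 higher and 1 lower. In bulk tissue, fewer cells of a type and less RNA per cell cannot be told apart, and the part of these shifts in the members' changes was not tested.

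Relative to endothelial genes, the family kept its division. Each library was scaled to the geometric mean of the blood endothelial markers. Between MI and sham 6 members passed in the infarct zone, 3 higher and 3 lower (23.0% of all genes, 10.8% higher and 12.1% lower). The border zone had 7, 3 higher and 4 lower (21.0%, 7.87% higher and 13.1% lower). In the remote zone 6 passed, 2 higher and 4 lower (12.4%, 2.6% higher and 9.76% lower). Kdr, an endothelial receptor, was lower than the endothelial list in all 3 zones, by log2 values of -0.76 ± 0.20, -0.63 ± 0.14 and -0.50 ± 0.15. Flt1 passed in the border (-0.49 ± 0.15) and remote (-0.38 ± 0.11) zones, and Vegfa passed in all 3 at -0.997 ± 0.214, -0.90 ± 0.19 and -0.72 ± 0.14. The Flt1 call in the border zone held in 3 of 12 fits with 1 animal left out, those without sham replicate 2 or 5 or MI replicate 4. Flt4 stood at 1.47 ± 0.37 in the infarct and 1.079 ± 0.200 in the border zone. Nrp2 did not pass on this scale (adjusted p = 0.056, 0.090 and 0.95). This scale moved the median of all genes by 0.20, 0.05 and -0.16 in the 3 zones. In the remote zone, leaving out 1 animal at a time gave 3 to 7 members, with 3 (Vegfd, Vegfa and Vegfb) without sham replicate 1, 2, 4 or 6 or MI replicate 5 or 6, and 7 without sham replicate 5. Of the single calls there, Flt1 held in 2 of 12 such fits (without sham replicate 5 or MI replicate 4), Kdr in 3 (without sham replicate 5 or MI replicate 1 or 2) and Pgf in 5 (without sham replicate 3 or 5 or MI replicate 1, 2 or 3).

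Relative to cardiomyocyte genes, 0 members passed as lower between MI and sham in any zone. All 10 members passed as higher in the infarct zone on this scale (86.8% of all genes), 8 did in the border (80.9%) and 7 in the remote zone (44.8%). The median over all genes stood at 2.53, 1.95 and 0.60, so that a member has to be read against it. Vegfa at 1.07 ± 0.44 and Vegfb at 1.15 ± 0.46 in the infarct zone lay under that median, and neither call held in every fit with 1 animal left out. Without sham replicate 5 the adjusted p was 0.052 for Vegfa and 0.054 for Vegfb, and the infarct zone count was 8. Both calls were also lost without any other single sham replicate or MI replicate 6, and that of Vegfb without MI replicate 2, so that Vegfa held in 5 and Vegfb in 4 of 12 fits. In the border zone Kdr was lost without sham replicate 4 or MI replicate 2 or 3. The remote zone count was 5 without sham replicate 1, 2, 3, 4 or 6 or MI replicate 4 or 5, where Flt1 and Nrp2 were lost, and 6 without MI replicate 2 or 3 (Flt1 lost) or 6 (Nrp2 lost). Vegfd at 5.38 ± 0.85 and Pgf at 4.89 ± 0.82 lay above the median of all genes in the infarct zone. In the remote zone Vegfa stood at 0.03 ± 0.12 and Vegfb at -0.08 ± 0.10. Both ligands there differed from the cardiomyocyte list by no more than their error, while Vegfc at 0.99 ± 0.18 and Flt4 at 1.06 ± 0.22 exceeded it.

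**Figure D3:**
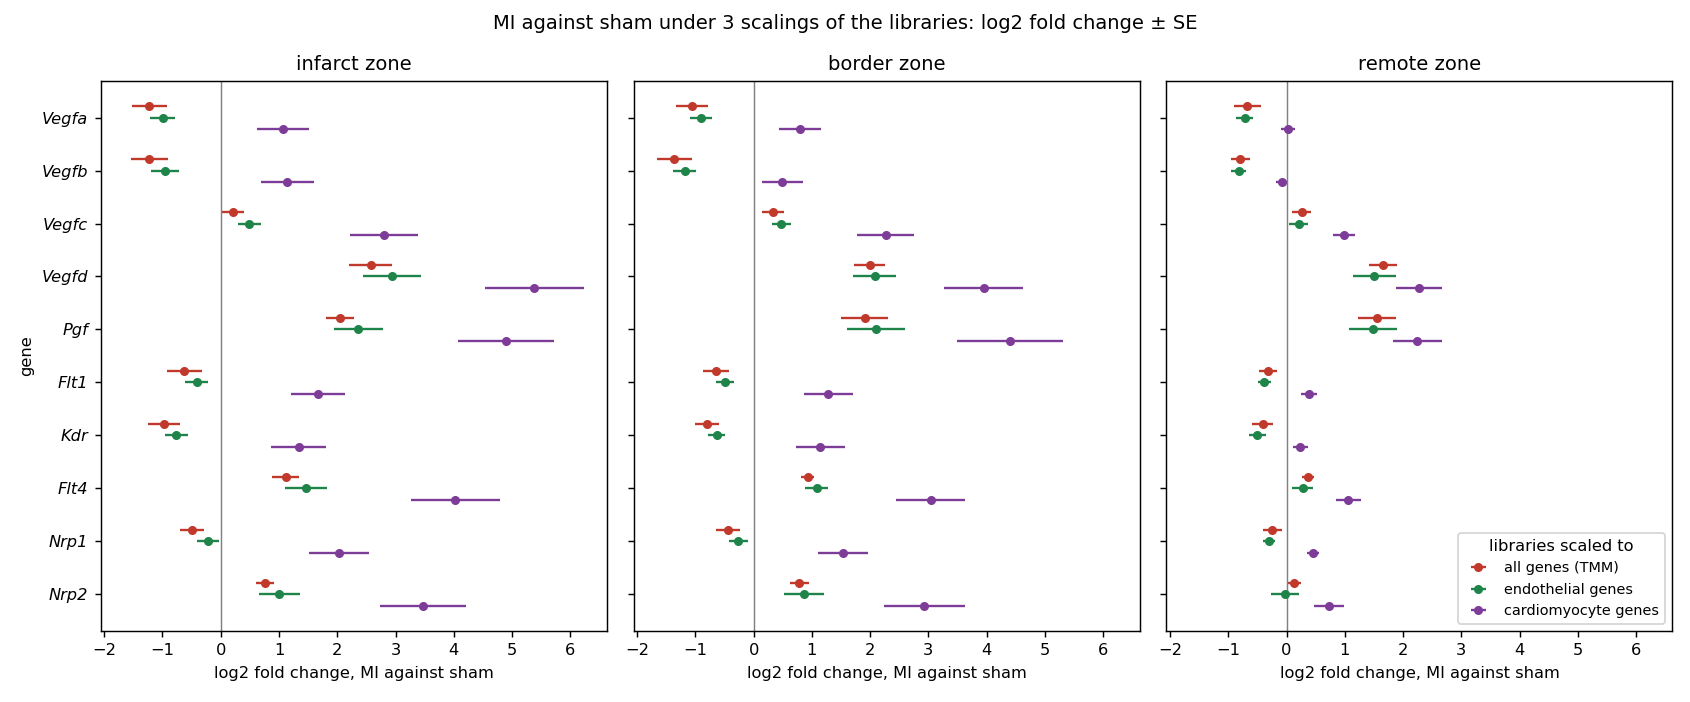
Log2 fold change of MI against sham (± SE) for each VEGF family gene in each zone, with libraries scaled to all genes (red), to 17 blood endothelial genes (green) or to 15 cardiomyocyte genes (purple). Vegfa, Vegfb, Flt1 and Kdr lie left of 0 on the first 2 scales and at or right of 0 on the cardiomyocyte scale, except Vegfb in the remote zone, at -0.08.

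The difference of the MI effect between zones was itself tested, in a model with a term for each animal. Flt4 and Nrp2 rose more in the infarct zone than in the remote zone, by log2 values of 0.68 ± 0.20 (adjusted p = 0.023) and 0.61 ± 0.13 (adjusted p = 0.0049), and the other 8 members did not pass. Of all genes tested, 28.9% passed. Vegfd came next at 0.75 ± 0.29 (adjusted p = 0.064). Flt4 did not pass without sham replicate 3. With the animal left out of the model neither gene passed (adjusted p = 0.072 and 0.051). Between the border and remote zones 0 of 10 members passed with edgeR (0% of genes), with Flt4 at 0.56 ± 0.11 and Nrp2 at 0.64 ± 0.14 both at an adjusted p of 0.064. There 3 members had an unadjusted p under 0.05 (24.2% of genes), and DESeq2 passed 2 (4.75% of genes), the same Flt4 and Nrp2.

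The cell sheet was then compared with untreated MI, which asks whether the graft was accompanied by a different level of the VEGF genes as counted. With all libraries 0 of 10 members passed in any zone with edgeR, where 0% of all genes passed in the infarct zone, 18.0% in the border and 17.1% in the remote zone. An unadjusted p under 0.05 was reached by 1 member in the infarct zone (Pgf), 2 of the border zone (Kdr and Nrp1) and 2 of the remote zone (Vegfa and Vegfb). Of all genes tested 8.28%, 32.4% and 34.9% reached it there. DESeq2 passed 0, 2 and 0 members in these zones, beside 0.208%, 13.1% and 13.6% of all genes. No member separated the 6 cell sheet libraries from the 6 MI libraries in any zone. The share of all genes that did so with all libraries was not calculated, so this count has no background beside it.

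The infarct zone intervals were wide. Vegfa ran from 119 to 569 CPM with a median of 209 CPM in cell sheet hearts, inside and around the MI range of 162 to 521 CPM, and the log2 fold change was -0.31 with a 95% interval from -1.20 to 0.57. Cell sheet replicate 6 held the 569 CPM and was also the highest of its group for Kdr, at 156 CPM against 94.4 CPM for the next. Its cardiomyocyte marker sum of 58468 CPM was the highest of the 6 as well. Without that animal the log2 fold change of Vegfa was -0.72 (adjusted p = 0.31), and without MI replicate 1 it was -0.0909. Vegfb moved from -0.37 to -0.79 and -0.16 in these fits, and Flt1 from -0.26 to -0.50 and -0.0880. Pgf had the largest value, 0.57 with an interval from 0.03 to 1.10 (adjusted p = 0.58), from medians of 5.78 CPM in MI and 8.94 CPM in cell sheet hearts. Vegfd was -0.22 from -1.06 to 0.62, Flt1 -0.26 from -0.98 to 0.45 and Kdr -0.18 from -0.85 to 0.49. The narrowest interval was that of Vegfc, from -0.53 to 0.18.

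In the border zone Kdr and Nrp1 came closest to the threshold. Kdr lay between 125 and 193 CPM with a median of 147 CPM in cell sheet hearts and between 79.4 and 133 CPM with a median of 123 CPM in MI. The ranges overlapped through cell sheet replicate 6, which lay below the 2 highest MI values, and the log2 fold change was 0.46 ± 0.16 (adjusted p = 0.059; 95% interval 0.12 to 0.80). Nrp1 had medians of 299 and 234 CPM and a log2 fold change of 0.44 ± 0.16 (adjusted p = 0.072; 0.10 to 0.79). Both passed with DESeq2 (adjusted p = 0.037 and 0.042; 13.1% of all genes passed) and with library sizes left unscaled (0.026 and 0.046), and Kdr passed with at least 10 counts in every library (0.048). Relative to endothelial genes neither passed, Kdr standing at 0.47 ± 0.16 (adjusted p = 0.10) and Nrp1 at 0.42 ± 0.16 (adjusted p = 0.13). Flt1 was 0.29 from -0.06 to 0.64. Flt4, Nrp2 and Pgf lay at -0.02, -0.10 and -0.13.

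The remote zone turned on 1 animal. With all 6 cell sheet libraries Vegfa was 0.46 (adjusted p = 0.13), Vegfb 0.58 (0.081), Vegfd -0.83 (0.16) and Pgf -0.07 (0.94). Cell sheet replicate 1 lay apart from the other 5 there, with Vegfd at 46.1 CPM against 7.59 to 14.96 CPM, Pgf at 8.54 CPM against 0.867 to 2.00 CPM, and Vegfa at 462 CPM against 725 to 895 CPM. Without it 6 of 10 members passed, where 41.6% of all genes passed. Vegfa was then 0.57 ± 0.17 (adjusted p = 0.019) and Vegfb 0.74 ± 0.11 (adjusted p = 0.00030), both higher in cell sheet hearts than in MI. Vegfd at -1.48 (adjusted p = 0.00032), Pgf at -0.98 (0.035), Flt4 at -0.48 (0.012) and Nrp2 at -0.45 (0.039) were lower. Without that animal Vegfb separated as entirely higher and Vegfd as entirely lower than MI (21.0% of all genes did not overlap).

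**Figure D4:**
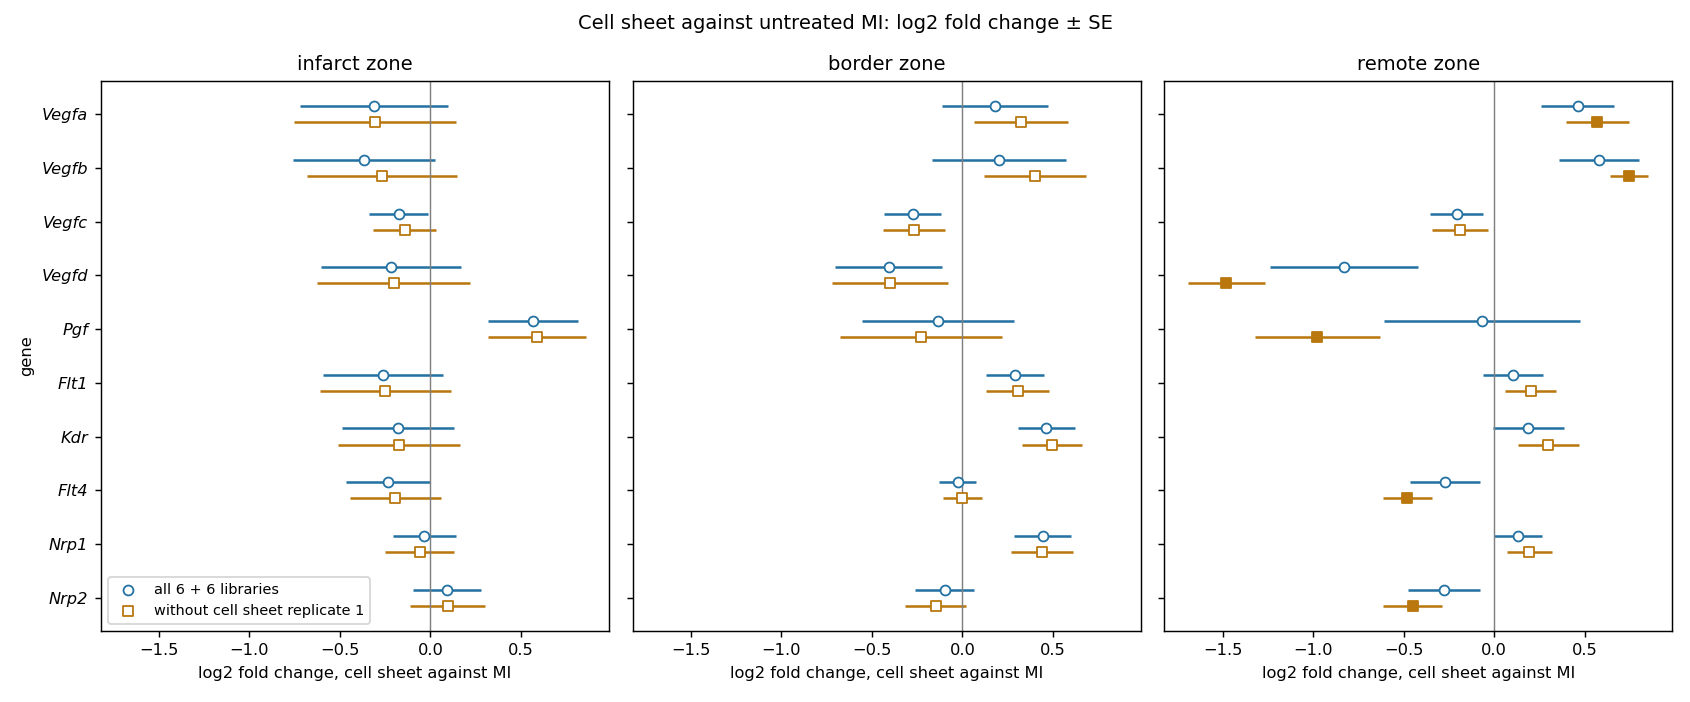
Log2 fold change of cell sheet-treated against untreated MI (± SE) for each VEGF family gene in each zone, with all libraries (blue circles) and without cell sheet replicate 1 (brown squares). Filled symbols passed an adjusted p of 0.05. Filled symbols appear only in the remote zone without that animal, for Vegfa, Vegfb, Vegfd, Pgf, Flt4 and Nrp2.

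Tissue markers differed in the same direction as these remote zone values. The 5 other cell sheet remote libraries had cardiomyocyte marker sums of 84115 to 117813 CPM, above the MI range of 49129 to 78029 CPM, and fibroblast marker sums of 3778 to 11897 CPM against 7021 to 25325 CPM in MI. On this scale Vegfa stood at 0.02 ± 0.15 and Vegfb at 0.03 ± 0.13 relative to cardiomyocyte genes. There 0 of 10 members passed with all libraries by edgeR (0.455% of genes), and none had an unadjusted p under 0.05 (19.9% of genes). Without cell sheet replicate 1 that count was 7, every one lower (65.4% of genes, around a median of -0.68 over all genes), and Vegfa, Vegfb and Kdr were the members that did not pass. Their part in the members' remote zone values was not tested. Relative to endothelial genes 2 members passed (15.7% of genes), Vegfa at 0.61 ± 0.16 (adjusted p = 0.020) and Vegfb at 0.68 ± 0.20 (adjusted p = 0.034). That count ranged from 0 to 4 when 1 animal at a time was left out, being 0 without MI replicate 5 and 4 without cell sheet replicate 1. It was also 0 without cell sheet replicate 3 or 5, and 1 (Vegfa) without MI replicate 1, 2 or 3 or cell sheet replicate 2. In the infarct and border zones 0 members passed relative to endothelial genes (0% and 6.91% of genes) or to cardiomyocyte genes (0.0370% and 0%). An unadjusted p under 0.05 was reached by 0 and 3 members relative to endothelial genes (3.72% and 24% of genes). Relative to cardiomyocyte genes 1 and 5 members reached it (31.7% and 53.3%). The infarct zone count relative to cardiomyocyte genes was 6 without cell sheet replicate 6 (75.6% of genes).

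No member's cell sheet effect was shown to differ between zones. With edgeR the interaction of cell sheet against MI passed for 0 of 10 members between the infarct and remote zones (0% of genes). Between the border and remote zones it also passed for 0 (0% of genes). An unadjusted p under 0.05 was reached by 1 and 0 members (24.8% and 20.4% of genes), and DESeq2 passed 0 and 0 (5.59% and 3.57%). The largest values were 1.05 ± 0.55 for Pgf and 1.01 ± 0.48 for Vegfd, infarct minus remote. Without cell sheet replicate 1 the infarct against remote count was 2, Vegfd and Pgf (11.8% of genes).

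Against sham, cell sheet hearts also had higher and lower members near the infarct, and more lower members passed in the infarct than in the border zone. Whether these effects differed between zones was not tested. Infarct zone calls were 9 of 10 members (57.9% of genes, 28.6% higher and 29.2% lower). Vegfd, Pgf, Flt4 and Nrp2 were higher and Vegfa, Vegfb, Flt1, Kdr and Nrp1 lower. The 4 higher members did not overlap with sham there (20.9% of all genes did not overlap), with Pgf at 3.70 to 10.9 CPM against 0.884 to 1.96 CPM and a log2 fold change of 2.63 ± 0.28. Nrp1, at -0.52 ± 0.21 (adjusted p = 0.047), did not pass with no filter on low counts or with library sizes left unscaled. It held in 2 of 12 fits with 1 animal left out, those without sham replicate 5 or cell sheet replicate 6, and was lost without cell sheet replicate 1 (adjusted p = 0.066). Vegfa fell by 1.53 ± 0.39 and Kdr by 1.15 ± 0.27 on the log2 scale. The border zone had 6 (43.6%), the same 4 higher and Vegfa (-0.90 ± 0.29) and Vegfb (-1.19 ± 0.39) lower, and 3 members did not overlap (19.6%). Vegfa there did not pass without sham replicate 3, 4 or 6 or cell sheet replicate 6, nor Vegfb without sham replicate 3 or cell sheet replicate 6. Without sham replicate 5 the border zone count was 8 (61.6%), with Flt1 at -0.52 (adjusted p = 0.00061) and Kdr at -0.50 (0.0033) added. With library sizes left unscaled the infarct zone split was 4 higher and 3 lower, and the border zone split 4 higher and 0 lower. Both of these comparisons share their sham libraries with those of MI against sham, and they are not independent of them.

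In the remote zone 0 of 10 members passed between cell sheet and sham hearts with edgeR, where 0.00660% of all genes passed. There 1 member had an unadjusted p under 0.05 (10% of genes), and DESeq2 passed 0 (0.674%). Vegfa had medians of 816 CPM in cell sheet and 928 CPM in sham hearts, and its log2 fold change was -0.21 with an interval from -0.68 to 0.25. For Pgf the change was 1.48 from 0.27 to 2.70 (adjusted p = 0.42) with all animals and 0.56 (adjusted p = 0.56) without cell sheet replicate 1. With both sham replicate 5 and cell sheet replicate 1 left out, the count was still 0 and the adjusted p of the members ran from 0.18 for Vegfa to 0.93 for Vegfc.

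Across all 54 libraries the members fell into 2 sets that ran against each other, with Vegfc outside both. Pearson's r of log2 CPM was 0.96 between Vegfa and Vegfb, 0.94 between Flt1 and Kdr, 0.94 between Vegfa and Kdr and 0.91 between Kdr and Nrp1. In the other set it was 0.88 between Vegfd and Pgf, 0.80 between Vegfd and Flt4 and 0.79 between Flt4 and Nrp2. Between the sets the lowest value was -0.84, for Vegfa or Vegfb with Nrp2. With the mean of each group removed, r was 0.91 for Vegfa and Vegfb, 0.90 for Flt1 and Kdr and 0.65 for Vegfd and Pgf. For Vegfd and Flt4 it was then 0.54, and for Flt4 and Nrp2 0.56. The opposition of the sets was weaker within groups, from -0.20 for Flt4 and Nrp1 to -0.73 for Vegfb and Nrp2. Vegfc had no r above 0.36 with another member over all libraries, but 0.51 with Nrp1 and 0.50 with Flt1 within groups. The 54 points share animals, treatments and tissue composition, and these values are descriptions without a test.

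**Figure D5:**
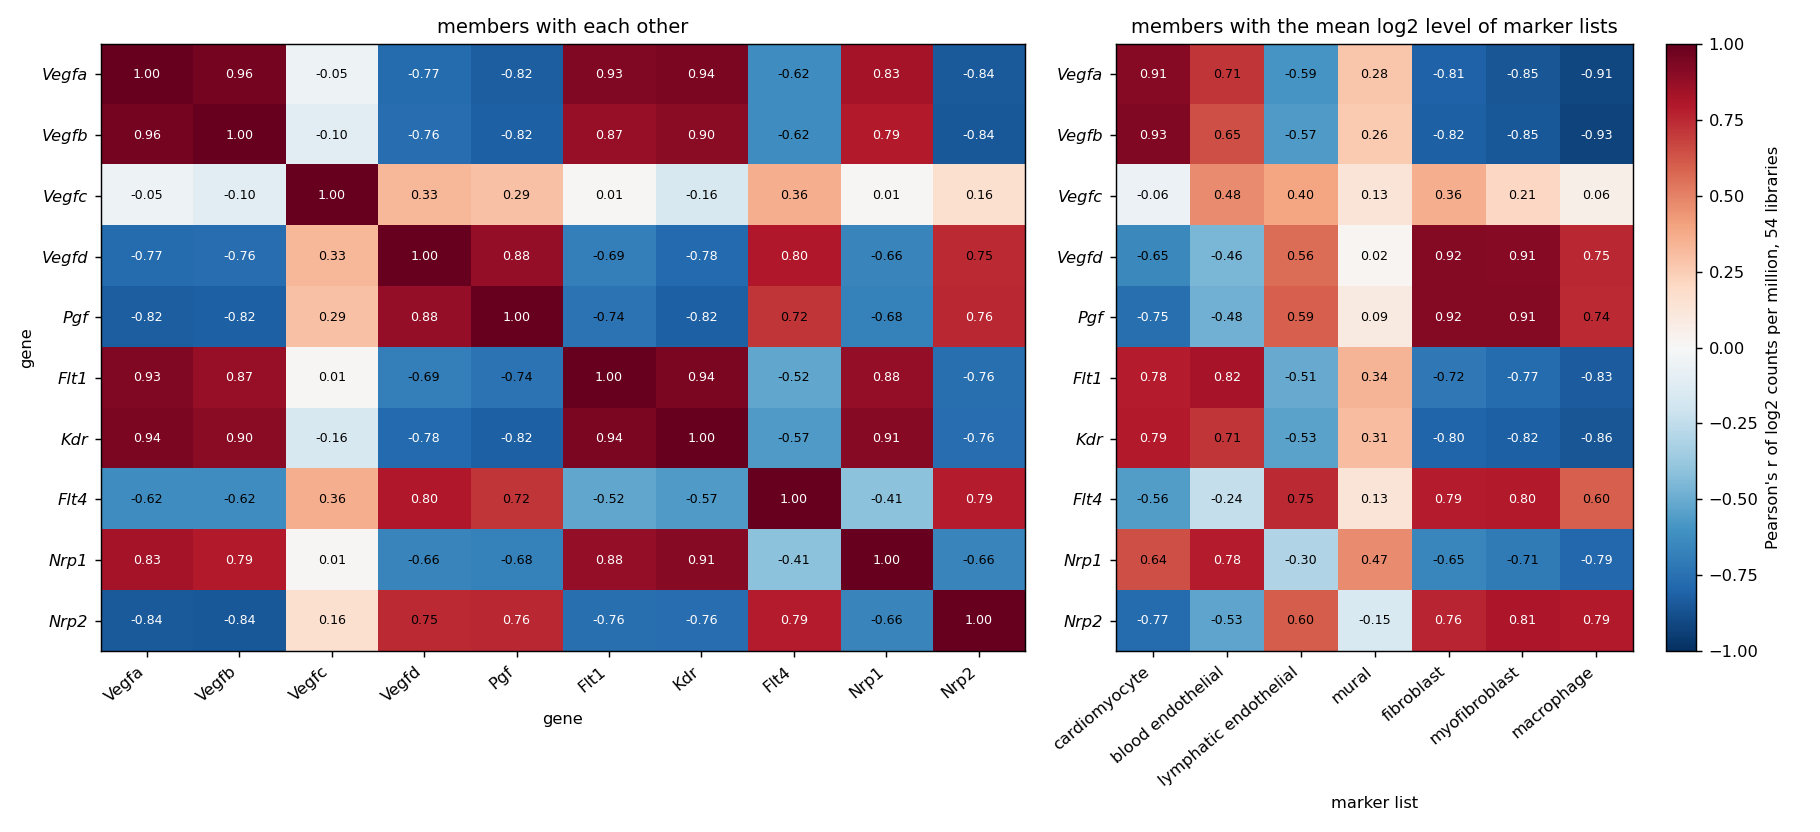
Pearson's r of log2 CPM over 54 libraries, between the VEGF family genes (left) and between each gene and the mean log2 level of 7 marker lists (right). Vegfa and Vegfb have their highest list value with cardiomyocyte markers (0.91 and 0.93), Flt1 with blood endothelial markers (0.82), and Vegfd and Pgf with fibroblast markers (both 0.92).

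The members also differed in the marker lists they followed. Vegfa and Vegfb had r of 0.91 and 0.93 with the mean log2 level of cardiomyocyte markers (0.84 and 0.88 within groups). Flt1 had 0.82, Nrp1 0.78 and Kdr 0.71 with blood endothelial markers, and 0.87, 0.85 and 0.80 within groups. Kdr had a higher value over all libraries with cardiomyocyte markers, 0.79, but 0.65 within groups. With macrophage markers Vegfa, Vegfb, Flt1 and Kdr had r of -0.91, -0.93, -0.83 and -0.86. Vegfd and Pgf each had 0.92 with fibroblast and 0.91 with myofibroblast markers. Flt4 had 0.75 with lymphatic endothelial markers, and 0.79 with fibroblast and 0.80 with myofibroblast markers, so that its nearest list was not the lymphatic one over all libraries (within groups 0.59, 0.54 and 0.43). Nrp2 had 0.81 with myofibroblast, 0.79 with macrophage and 0.78 with proliferation markers (within groups 0.58, 0.56 and 0.68). With lymphatic endothelial markers it had 0.60 (0.28 within groups), and with blood endothelial markers -0.53 (-0.46). Vegfc had its highest within-group value, 0.74, with blood endothelial markers.

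Among 13291 genes with a mean log2 CPM of at least 1, the most similar genes by r over the 54 libraries were Asb14 (0.98) for Vegfa, Btbd1 (0.99) for Vegfb and Cavin3 (0.75) for Vegfc. For Vegfd it was Fstl1 (0.95), a secreted glycoprotein of stromal cells, and for Pgf Chsy3 (0.93), with the collagen chain gene Col8a2 second for both (0.95 and 0.93). Flt1 was nearest to Ptprb (0.97), an endothelial phosphatase, followed by Adgrf5 (0.96), which was also nearest to Nrp1 (0.94). Kdr was nearest to Rbpms (0.97), Flt4 to Myo1d (0.87) with the fibroblast activation gene Fap also near (0.86), and Nrp2 to Spats2 (0.90).

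Genes around the family were described by lists. After MI in the infarct zone, the genes of VEGF signal transduction downstream of Kdr were split, with 11 of 40 higher and 10 lower, beside 22.7% higher and 27.2% lower among all genes. Nfatc2, a calcium-responsive transcription factor, was lower at -1.09 ± 0.17. Src, a kinase recruited by Kdr, was higher at 1.36 ± 0.33, as was the adaptor Shc2 at 1.47 ± 0.25. The median log2 fold change of the list was -0.02, beside -0.02 over all genes. Hypoxia-inducible factors and their targets were split as well, with 7 of 24 higher and 9 lower. Pdk1 was at -1.91 ± 0.44 and Bnip3 at -1.43 ± 0.35, whereas Pfkfb4, a glycolytic regulator, was at 1.61 ± 0.33.

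In the other lists more genes were higher than lower. Genes of VEGF-stimulated and tip endothelial cells had 8 of 16 higher and 1 lower, with a median of 0.56, and among them were Plaur (2.22 ± 0.39), Kcne3 (1.96 ± 0.33) and Angpt2, a destabilizing ligand of the Tie2 receptor (1.21 ± 0.24). Semaphorin ligands and plexins had 6 of 12 higher and 1 lower, including Sema3f, a ligand of Nrp2, at 1.02 ± 0.14. Genes of VEGF-C processing and lymphatic endothelium had 8 of 11 higher and 1 lower with a median of 1.37. Among these were the procollagen proteases Adamts2 (1.67 ± 0.16) and Adamts14 (1.95 ± 0.38), and Ccl21, a chemokine of lymphatic vessels (1.76 ± 0.39). Modulators of VEGF availability had 13 of 19 higher and 2 lower. The angiogenesis inhibitor Thbs1 was at 3.54 ± 0.56 and the matricellular VEGF binder Ccn2 at 2.88 ± 0.32. Most of these genes are also expressed outside endothelium, and their share in the shifts of the marker sums was not tested. Remote zone counts of the same lists were 6 of 16 higher and 0 lower, 3 of 11 and 1, 3 of 11 and 1, and 7 of 19 and 1, where 11.7% of all genes were higher and 14.2% lower.

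Between cell sheet and MI hearts in the border zone, where 8.47% of all genes were higher and 9.48% lower, semaphorins and plexins had 6 of 12 higher and 0 lower (median 0.54). They included the plexin co-receptors Plxna4 (0.78 ± 0.16), Plxna3 (0.73 ± 0.13) and Plxna2 (0.69 ± 0.18), and Sema3g (0.85 ± 0.24), a semaphorin of arterial endothelium. VEGF signal transduction had 2 of 40 higher and 1 lower, and hypoxia-inducible factors and targets 1 of 24 higher and 2 lower. The hypoxia genes were Epas1, which encodes HIF-2α, at 0.45 ± 0.14, Higd1a at -1.38 ± 0.31 and Vhl, which marks HIF proteins for degradation, at -0.47 ± 0.10. In the tip cell list Pdgfb was higher (0.53 ± 0.12) and Cxcr4 lower (-0.68 ± 0.17), and in the lymphatic list Ccl21 was lower (-1.14 ± 0.34). The modulator list had Hspg2, the basement membrane proteoglycan perlecan, higher at 1.12 ± 0.20 and Gipc1 lower at -0.41 ± 0.11. Median marker sums in this zone were 27341 CPM for fibroblasts, 2751 CPM for blood endothelium and 6638 CPM for macrophages in MI, and 41481, 2706 and 3074 CPM in cell sheet hearts. Of the fibroblast markers 0 of 9 passed, with a median log2 fold change of -0.08, and of the macrophage markers 1 of 10 passed, as lower. Mural cell markers moved more, with 5 of 9 higher and 0 lower (median 0.63) and median sums of 1423 CPM in MI and 2118 CPM in cell sheet hearts. Adipocyte markers had 4 of 7 tested higher (median 4.71), with median sums of 142 and 721 CPM. The part of these markers in the list counts was not tested.

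The remote zone counts of cell sheet against MI held few calls, where 10.3% of all genes were higher and 6.79% lower. Semaphorins and plexins had 2 of 11 higher and 2 lower (median 0.09), and VEGF signal transduction 5 of 40 higher and 3 lower. Hypoxia-inducible factors and targets had 2 of 24 higher and 2 lower, the tip cell list 0 of 16 higher and 1 lower, the lymphatic list 1 of 11 higher and 1 lower, and the modulators 1 of 19 higher and 0 lower. Cell sheet against MI passed 0 genes of these 6 lists in the infarct zone with edgeR, where 0 of all genes tested passed.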

How the data were processed

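RNA of the 54 left ventricular pieces was sequenced as paired-end poly(A) libraries, and reads were aligned with STAR to mRatBN7.2. The values used are gene counts as deposited by the authors, not normalized. The program that counted reads, and whether it used strand, are not given in the sources used here, so reads of overlapping or antisense genes were not told apart. Each table also held 5 lines that name no gene, with 17.0% to 42.8% of a library's counts, which were left out. Totals on genes were 12699204 to 23397754 per library, and no 2 libraries were identical. No column of values was without a sample. The sequences came from RefSeq.

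Groups came from the labels, with 6 libraries in each. Counts were tested with edgeR 4.0.16 in R 4.3.3 (quasi-likelihood F test, TMM factors, filterByExpr, the libraries of the 2 groups compared), with Benjamini-Hochberg adjustment over all genes tested and a threshold of 0.05. The SE is the log2 fold change divided by the square root of F. Interactions of treatment and zone held the animal as a block. Scaling to a marker list set each library's size to the geometric mean of the list's counts plus 1. Levels (CPM) used TMM factors over all 54 libraries, and correlations used log2 with an offset of 0.1. Alternatives were DESeq2 1.42.0, library sizes without TMM factors, no filter or at least 10 counts in every library, a single fit of all 9 groups, the replicate number as a block, the median of ratios over a marker list, and each replicate left out in turn. Leaving out sham replicate 5 and cell sheet replicate 1 together was chosen after seeing the data. The calculations were tested on simulated data.

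The 10 genes and the lists were chosen with earlier results of these data known. Named in addition were, for each member, the 3 genes with the highest r (at most 3 were printed), and up to 4 genes of a pathway list that passed with the largest change in MI against sham in the infarct zone or in cell sheet against MI in the border zone.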

Additional observations from a re-analysis of the deposited data

Results flagged for a closer look

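Of 90 combinations of a member and a group of 6 libraries, 15 had an end library whose gap to the next, as a share of the group's range, exceeded Dixon's critical value. That value is passed by chance in about 1 in 20 independent sets of normally distributed values. The members share libraries and correlate, so 15 of 90 cannot be set against that rate. Sham replicate 5 was the end library in 9 of the 15. It was lowest for Vegfa in the remote (404.9 CPM), border (346.8 CPM) and infarct (350.2 CPM) zones, and for Vegfb in the remote (172.2 CPM) and border (95.22 CPM) zones. It was also lowest for Vegfc (10.14 CPM) and Flt1 (93.06 CPM) in the infarct zone and for Nrp1 in the border zone (161.2 CPM), and highest for Nrp2 in the remote zone (146.9 CPM). Cell sheet replicate 1 stood apart in the remote zone as the highest for Vegfd (46.14 CPM) and Pgf (8.537 CPM) and the lowest for Kdr (134.4 CPM). The other 3 were Pgf in cell sheet replicate 2 of the border zone (1.607 CPM, lowest), Kdr in cell sheet replicate 6 of the infarct zone (155.9 CPM, highest) and Flt4 in MI replicate 1 of the border zone (27.08 CPM, lowest).

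The MI effect differed between the infarct and remote zones by the interaction test for Flt4, by 0.679 on the log2 scale, and for Nrp2, by 0.6127.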

How the results depend on the processing

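Of 620 values of single members under alternatives other than leaving out 1 animal, 576 kept their direction and their side of the threshold, 22 lost and 14 gained a call, and 8 changed sign. With 1 animal left out these numbers were 1498, 114, 17 and 27 of 1656. In interactions and in comparisons scaled to a marker list, only members past the threshold in the main test were counted. Calls gained there are therefore not among these numbers. None of the values that changed sign below passed in the main test, and the cause of the changes was not tested. With both sham replicate 5 and cell sheet replicate 1 left out, cell sheet against sham gave -0.0517 for Vegfc in the infarct, -0.0673 in the border and -0.0426 in the remote zone, and -0.14 for Flt4 in the remote zone. With library sizes left unscaled, Flt4 in cell sheet against MI was 0.0304 and Nrp1 in cell sheet against sham 0.27, both in the border zone.

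The number of members past the threshold in cell sheet against MI in the border zone was 2 with DESeq2, 2 with library sizes left unscaled and 1 with at least 10 counts in every library, in place of 0. In MI against sham in the remote zone it was 3 with at least 10 counts in every library and 2 in the single fit of all 9 groups, in place of 5. With at least 10 counts Vegfa lost its call (adjusted p = 0.051), whereas Pgf, with libraries at 9 counts, was not tested. DESeq2 gave 2 in place of 0 for MI against sham, border minus remote zone. With 1 animal left out the counts ranged from 0 to 1 in cell sheet against MI in the border zone (1 without MI replicate 1), 4 to 8 in MI against sham in the remote zone, 0 to 6 in cell sheet against MI in the remote zone, 0 to 2 in MI against sham, border minus remote zone (2 without MI replicate 5), and 0 to 2 in cell sheet against MI, infarct minus remote zone. Relative to endothelial genes the remote zone ranges were 3 to 7 for MI against sham and 0 to 4 for cell sheet against MI. Relative to cardiomyocyte genes the ranges for cell sheet against MI were 0 to 6 in the infarct zone and 0 to 7 in the remote zone.

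Values of single members that changed sign with 1 animal left out ranged, in cell sheet against MI in the infarct zone, from -0.41 to 0.0149 for Vegfd, -0.43 to 0.0686 for Kdr, -0.12 to 0.12 for Nrp1 and -0.0117 to 0.205 for Nrp2. In the border zone they ranged from -0.0224 to 0.401 for Vegfb, -0.33 to 0.11 for Pgf and -0.0826 to 0.0314 for Flt4, and in the remote zone from -0.98 to 0.15 for Pgf. In cell sheet against sham they ranged for Vegfc from -0.0975 to 0.0994 in the infarct, -0.0773 to 0.0777 in the border and -0.0495 to 0.125 in the remote zone, for Nrp1 from -0.166 to 0.0298 in the border zone, and for Flt4 from -0.12 to 0.18 in the remote zone.

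With group means removed, correlations of same-numbered libraries ran from -0.55 to 0.63 in MI against sham in the infarct zone. They ran from negative to positive in every comparison. Libraries also differed in tissue markers, so these correlations cannot show whether the replicate numbers pair the animals. With the replicate number as a block the counts were 7, 7 and 5 for MI against sham in the infarct, border and remote zones, 0, 0 and 0 for cell sheet against MI, and 8, 4 and 0 for cell sheet against sham. The count of 5 in the remote zone held other genes than without the block, as Flt4 lost its call (adjusted p = 0.053) and Kdr gained one (0.022). With the block, Pgf in cell sheet against MI in the border zone was 0.0376 and Nrp1 in cell sheet against sham 0.0129. Without the animal as a block the count for MI against sham, infarct minus remote zone, was 0 in place of 2.

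Limits: gene counts do not separate transcript forms, Pgf rests on few reads, and the depth of the sheet's human transcripts was not analysed here.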
